A study of Homo sapiens with 9 samples.

Results

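Antisense RNAs are noncoding transcripts read from the strand opposite a known gene. They often start at the same promoter as that gene and run away from it, or lie across its exons. Several have been described as regulators of the gene beside them through chromatin, splicing or RNA stability, and several are raised in colorectal tumours. The 189 genes described here were those with the gene type antisense and a mean of at least 100 counts over the 9 sequenced samples of HCT116, a human colorectal cancer cell line. They were taken from 3701 antisense genes among the 31558 genes of the count table. Genes with symbols starting with HOX, SNHG, HOTAIRM1, GAS5 and ZFAS1 were set aside, which removed 5 of the 194 antisense genes that passed the minimum (SNHG7, HOXA10-AS, ZFAS1, SNHG12 and HOTAIRM1). The members were thus chosen by their mean count, so their abundance is given as a description.

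HCT116 cells overexpressing the long noncoding RNA CRLM1 (CRLM1-OE) were compared with cells carrying the free, empty plasmid (Ctrl) and with cells carrying an antisense construct (Anti), with 3 biological replicates each. The study calls these cells transfected. Its methods also describe a lentiviral, puromycin-selected vector for CRLM1, and whether the sequenced cells of all 3 groups went through that selection is not given in the sources used here. All samples are of 1 cell line. Poly(A) RNA was sequenced, and the authors deposited counts of uniquely mapped reads and FPKM values (fragment counts scaled by exon length and library size). P-values here measure the spread between these samples. Whether the counting used strand is not stated, and without strand the reads of a gene and of its antisense partner cannot be told apart where their exons overlap.

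Total counts ranged from 33302292 to 44514692 per sample, where 3 counts, the smallest signal considered, correspond to 0.0674 to 0.0901 CPM, counts scaled to library size. This covers counting error only. CRLM1 (RP4-710M16.2 in the files) had 38704, 32751 and 35726 counts in CRLM1-OE and none in Ctrl (0 in each). In Anti this gene had 1951, 1777 and 1540 counts, which is 4.62% to 5.12% of the mean CRLM1-OE level in CPM. Of 8 colon epithelial markers, 7 were above 19 FPKM in every sample and LGALS4 was at most 0.07 FPKM. Markers of other cell types summed to between 3.03 and 3.96 FPKM, nearly all of it from COL1A1 and DES, and PTPRC and COL3A1 were at 0.01 FPKM at most. Mitochondrially encoded genes took the smallest part of the counts in CRLM1-OE (5.63% to 5.71%), more in Ctrl (6.39% to 6.54%) and the most in Anti (7.17% to 7.28%), and their part in the results below was not tested.

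The members' mean counts ran up to 6886 with a median of 204.9, and 93 members lay under 200. No member was at 0 in any sample. The 10 highest held 39.6% of all member counts, and the members together held 0.208% to 0.224% of all counts in the CRLM1-OE samples, against 0.196% to 0.211% for Ctrl and 0.206% to 0.213% for Anti. Just inside the minimum were AC104667.3 (100 counts after rounding), RP3-394A18.1 (100.3) and CTA-29F11.1 (100.4). TTN-AS1 (98.4), RP11-115C21.2 (98.7) and AC012314.8 (98.8) fell just outside it. Of the 189 symbols, 60 end in -AS and a number and 110 are clone or accession names.

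GENCODE version 44 on GRCh38 placed 186 of the members by gene ID, and gave new names to many of the clone entries. An exon of 163 of them overlapped an exon of a gene on the opposite strand. Over all 186, those without overlap included, a median of 20.75% of the member's exonic bases was covered. For 51 members the opposite exons covered more than 50% of these bases. The start of 66 members lay within 1000 bp of the start of an opposite-strand gene, a head-to-head arrangement, and 16 members had neither feature. Exons of other genes on the same strand overlapped those of 21 members. In the newer annotation 177 were typed as lncRNA, 6 as protein-coding and 3 as transcribed pseudogenes. The members are therefore a mixed class by position, and the sections below follow that order.

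The head-to-head arrangement is shown first, since it places 2 transcripts on 1 promoter. RefSeq (GRCh38.p14) gave a promoter window, 250 bases before to 50 after the start, for 85 of the 189 members. These windows held a median of 24 CG dinucleotides against 14 over all 35116 RefSeq windows, with 28.5 in the 44 head-to-head members and 19 in the other 41. Windows of 4 members that start beside the gene they are named after follow, 5′ to 3′ on the strand of the antisense RNA, with capitals for the bases between both start sites. They are the windows of the file's MAFG-AS1 (MILIP in RefSeq, chr17:81927579-81927878, + strand, 93 bases between the starts), TPT1-AS1 (chr13:45341095-45341394, + strand, 161 bases), UBA6-AS1 (UBA6-DT, chr4:67701028-67701327, + strand, 122 bases) and RNASEH1-AS1 (RNASEH1-DT, chr2:3558137-3558436, + strand, 53 bases).
MAFG-AS1: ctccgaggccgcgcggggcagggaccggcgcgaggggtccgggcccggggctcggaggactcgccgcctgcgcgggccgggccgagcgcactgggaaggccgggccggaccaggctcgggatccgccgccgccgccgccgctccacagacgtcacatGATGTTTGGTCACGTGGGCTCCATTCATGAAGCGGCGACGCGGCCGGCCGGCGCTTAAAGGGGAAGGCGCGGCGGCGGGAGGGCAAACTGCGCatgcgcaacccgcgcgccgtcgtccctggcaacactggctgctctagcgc
TPT1-AS1: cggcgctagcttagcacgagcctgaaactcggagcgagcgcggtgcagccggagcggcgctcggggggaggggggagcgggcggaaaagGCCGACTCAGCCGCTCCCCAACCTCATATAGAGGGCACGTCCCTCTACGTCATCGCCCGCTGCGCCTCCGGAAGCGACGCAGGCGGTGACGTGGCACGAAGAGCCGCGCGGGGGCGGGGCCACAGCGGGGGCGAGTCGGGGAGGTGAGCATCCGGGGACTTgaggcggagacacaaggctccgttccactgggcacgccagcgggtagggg
UBA6-AS1: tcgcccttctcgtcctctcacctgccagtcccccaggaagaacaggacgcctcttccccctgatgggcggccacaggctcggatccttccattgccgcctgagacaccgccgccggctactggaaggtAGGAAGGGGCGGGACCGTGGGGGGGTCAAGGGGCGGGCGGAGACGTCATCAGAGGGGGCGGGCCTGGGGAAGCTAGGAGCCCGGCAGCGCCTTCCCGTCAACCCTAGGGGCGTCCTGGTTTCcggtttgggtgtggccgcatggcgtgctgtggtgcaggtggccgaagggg
RNASEH1-AS1: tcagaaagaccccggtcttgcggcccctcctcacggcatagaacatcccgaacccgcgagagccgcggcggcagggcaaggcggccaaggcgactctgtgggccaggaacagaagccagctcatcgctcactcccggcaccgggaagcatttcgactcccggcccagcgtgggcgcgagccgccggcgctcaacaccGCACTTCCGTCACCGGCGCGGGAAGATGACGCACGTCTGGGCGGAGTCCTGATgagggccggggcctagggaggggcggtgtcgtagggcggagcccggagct
In each window the capitals begin at the RefSeq start of the sense gene on the other strand and end at that of the antisense RNA. By RefSeq these short stretches thus lie upstream of both. GENCODE version 44 leaves only 60 bp between the 2 genes for TPT1-AS1 and 53 bp for UBA6-AS1. By that annotation, part of the capitals of these 2 windows lies inside 1 of the genes. Its gaps are 93 bp for MAFG-AS1 and 85 bp for RNASEH1-AS1. The stretch of MAFG-AS1 holds the E-box CACGTG, which is found in 7.26% of all windows. The stretches of the other 3 members hold the GC box GGGCGG, found in 45% of all windows and in 67.1% of the members' windows.

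The windows of VPS9D1-AS1 (chr16:89711606-89711905, + strand) and of RP11-517C16.2 (ATP2C2-AS1, chr16:84467312-84467611, - strand) are shown because these 2 members had the largest fall and the largest rise. Capitals mark matches, on either strand, to 8 motifs, which were the E-box (CACGTG), the CCAAT box (its 5 letters), the CRE (TGACGTCA), an ETS site (CCGGAAG), the GC box (GGGCGG), the TATA box (TATAAA), the AP-1 site (TGANTCA) and the antioxidant response element core (TGACNNNGC).
VPS9D1-AS1: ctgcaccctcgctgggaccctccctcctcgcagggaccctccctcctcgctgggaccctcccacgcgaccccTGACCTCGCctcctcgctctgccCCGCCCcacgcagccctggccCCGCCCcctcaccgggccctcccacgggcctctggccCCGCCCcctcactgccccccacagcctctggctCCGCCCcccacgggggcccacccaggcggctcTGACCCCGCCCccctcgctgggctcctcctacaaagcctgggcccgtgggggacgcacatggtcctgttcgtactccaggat
ATP2C2-AS1: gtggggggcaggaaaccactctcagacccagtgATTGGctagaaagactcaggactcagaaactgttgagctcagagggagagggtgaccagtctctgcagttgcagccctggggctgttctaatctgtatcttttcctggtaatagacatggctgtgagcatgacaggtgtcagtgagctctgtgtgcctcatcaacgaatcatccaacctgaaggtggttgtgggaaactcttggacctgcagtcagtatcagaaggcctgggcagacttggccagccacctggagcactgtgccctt
VPS9D1-AS1 had 5 matches to GGGCGG and 2 to TGACNNNGC (in 13.3% of all windows), and the second of these overlaps a GGGCGG match. The window of RP11-517C16.2 held 1 match, to CCAAT, which 34.6% of all windows and 40% of the members' windows contain. TATAAA was in 5.88% of the members' windows and in 11.5% of all windows. A match is a run of letters and not a bound site.

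Against the free plasmid control, 2 members were at least 2-fold higher in CRLM1-OE at an adjusted p of at most 0.05 and 1 was at least 2-fold lower. Over all 29846 genes tested these calls took 2.5% and 0.915%, and over the 11702 genes with a mean of at least 100 counts 1.31% and 0.701%. The count of 2 became 1 without the third CRLM1-OE replicate and 4 without the third Ctrl replicate. At an adjusted p of 0.05 alone, 43 members were higher (15% of all genes tested) and 49 lower (16.8%), and 97 did not pass. Among all genes with at least 100 counts, 28.8% and 39.1% passed. The split turned to 67 higher and 30 lower when libraries were scaled by total counts alone. TMM factors, which correct library sizes for composition, were, over the 9 samples, 1.05 in all CRLM1-OE samples and 0.945 to 0.955 in Ctrl. That scaling moved the members' median log2 fold change from -0.012 to 0.13 and the median of all genes with at least 100 counts from -0.048 to 0.094. FPKM values below carry no TMM factor. The members' median size of change, in either direction, was 0.23 on the log2 scale, the same as for the abundant genes (0.23). The 3 CRLM1-OE values lay apart from the 3 Ctrl values in 101 members (53.4%), against 37.5% of all genes tested and 72% of those with at least 100 counts.

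RP11-517C16.2, an antisense RNA lying within ATP2C2 (chr16:84459259-84467361, - strand), rose the most. It stood at 1.5, 1.58 and 1.76 FPKM in CRLM1-OE, at 0.54, 0.45 and 0.49 FPKM in Ctrl and at 0.52, 0.51 and 0.53 FPKM in Anti. The CRLM1-OE samples were above all 6 others, and the 2 controls overlapped. The log2 fold change was 1.59 ± 0.14 (SE) against Ctrl (adjusted p = 5.4e-28) and 1.59 ± 0.14 against Anti (adjusted p = 6e-29). Opposite-strand exons cover 64.3% of the member's exonic bases, those of ATP2C2 the most. ATP2C2, a calcium ATPase of the secretory pathway, did not pass against Ctrl (-0.04, adjusted p = 0.58) and fell against Anti (-0.40, adjusted p = 6.2e-17). Its counts thus did not move with those of the antisense RNA, which amounted to 16.7% to 20.5% of the ATP2C2 counts in CRLM1-OE and 4.32% to 6.2% in the controls.

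AP006621.8 also rose. It lies on the - strand at chr11:823634-832883, its start 4 bp from that of CD151. Opposite-strand exons, most of all those of PNPLA2, the adipose triglyceride lipase, cover 67.6% of its exonic bases. Its level was 5.56, 5.92 and 6.62 FPKM in CRLM1-OE, against 2.71, 2.94 and 2.62 FPKM in Ctrl, without overlap (log2 fold change 1.01 ± 0.13, adjusted p = 1.2e-13). In Anti it was 2.33, 2.28 and 2.34 FPKM, for a log2 fold change of 1.33 ± 0.14 in CRLM1-OE against Anti (adjusted p = 8.2e-22). PNPLA2 rose as well, by 0.69 and 1.07 on the log2 scale. CD151, the tetraspanin at the shared start, changed by -0.06 and 0.19.

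RP11-465N4.4 (ELF3-AS1, chr1:201995696-202010463, - strand) was the 1 member called lower against Ctrl. It had 3.17, 3.3 and 2.44 FPKM in CRLM1-OE, next to 6.28, 6.28 and 5.37 in Ctrl and 4.71, 4.65 and 4.47 in Anti. The 3 groups were fully separated, with CRLM1-OE lowest and Ctrl highest. The log2 fold change against Ctrl was -1.13 ± 0.11 (adjusted p = 7.9e-23) and against Anti -0.69 ± 0.12 (adjusted p = 4.3e-08). Opposite-strand exons cover 23.3% of the member's exonic bases, those of ELF3 the most. ELF3, an epithelial ETS transcription factor, rose slightly (0.08 against Ctrl, 0.30 against Anti). This call depends on scaling, since no member was called lower under total counts or on log2 FPKM.

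**Figure D1:**
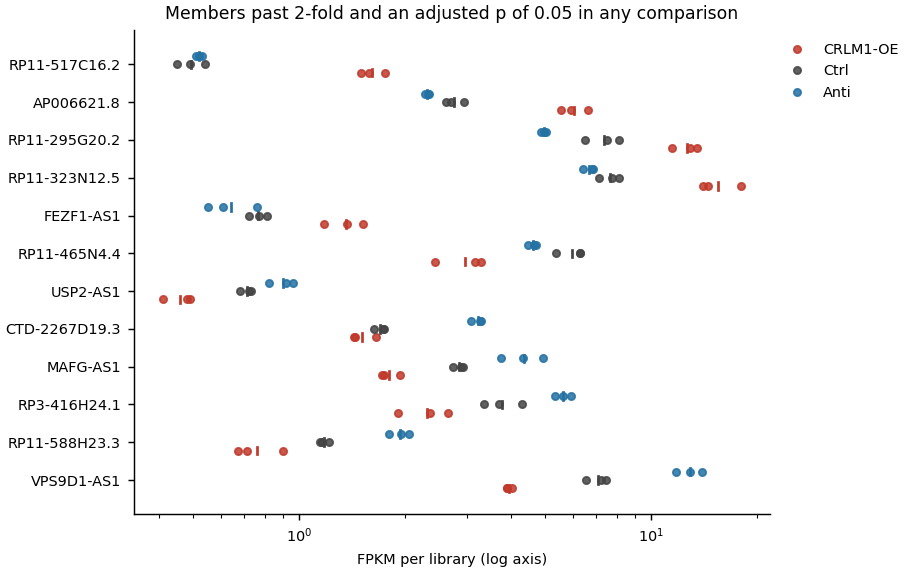
FPKM of the 12 members called in any comparison (log axis), 1 point per sample and a bar at the mean of the 3 replicates of CRLM1-OE, Ctrl and Anti. RP11-517C16.2 sits at 1.5 to 1.76 in CRLM1-OE and at most 0.54 in both controls, while VPS9D1-AS1 climbs from 3.90 in CRLM1-OE through Ctrl to 13.9 in Anti.

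Among the other members with the largest changes against Ctrl, 4 rose by a little less than 2-fold. RP11-661A12.9 rose by 0.96 ± 0.13, RP3-394A18.1 by 0.93 ± 0.15, TMEM147-AS1 by 0.92 ± 0.13 and RP11-323N12.5 by 0.91 ± 0.12 on the log2 scale. RP3-394A18.1 spans 49287 exonic bases and reached only 0.08 FPKM, so its 100.3 counts are a thin cover. RP11-323N12.5 lies whole within opposite-strand exons, most of all those of TIMP2, a metalloproteinase inhibitor that rose by 0.75. Such exons cover 72.9% of the exonic bases of RP11-661A12.9, those of NAPRT the most, and NAPRT rose by 0.67.

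In CRLM1-OE against Anti 5 members were called higher and 6 lower, with 3.09% and 2.56% called over all 30183 genes tested and 1.81% and 2.51% over the genes with at least 100 counts. At an adjusted p of 0.05 alone 59 were higher (17.1% of all genes tested) and 52 lower (18.5%), and 78 did not pass. The abundant genes had 33.8% higher and 40.4% lower. The members' median log2 fold change was -0.0047 (-0.037 for the abundant genes) and its median size 0.30 (0.27 for the abundant genes). All CRLM1-OE values lay to 1 side of all Anti values in 117 members (61.9%), against 41% of all genes tested and 77.5% of the abundant ones.

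VPS9D1-AS1 (chr16:89711856-89718165, + strand), named after a gene for a VPS9-domain protein, had the largest change of all members. It stood at 4.04, 3.90 and 3.90 FPKM in CRLM1-OE, at 7.47, 7.21 and 6.54 FPKM in Ctrl and at 12.9, 13.9 and 11.8 FPKM in Anti. The 3 groups did not touch, and both controls also differed from each other. The log2 fold change was -1.75 ± 0.069 against Anti (adjusted p = 4.5e-139), -0.96 ± 0.080 against Ctrl (adjusted p = 2.2e-31) and 0.77 ± 0.062 in Anti against Ctrl (adjusted p = 1.2e-33). Exons of VPS9D1 cover 29.5% of its exonic bases.

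The 3-step order of CRLM1-OE lowest, Ctrl between and Anti highest was shared by 4 other members called lower against Anti. RP11-588H23.3 has 16.3% of its exonic bases in opposite-strand exons, most of all those of the phosphatase gene PTPRB. It had 0.71, 0.67 and 0.90 FPKM in CRLM1-OE, next to 1.16, 1.22 and 1.15 in Ctrl and 1.95, 1.80 and 2.05 in Anti (log2 fold change against Anti -1.38 ± 0.091). MAFG-AS1 had 1.72, 1.75 and 1.94 FPKM, 2.89, 2.74 and 2.93 FPKM, and 4.34, 3.75 and 4.95 FPKM in the same order (-1.31 ± 0.10). RP3-416H24.1 (KRT7-AS), opposite the keratin gene KRT7, had 2.36, 1.91 and 2.66 FPKM, 3.36, 3.69 and 4.31 FPKM, and 5.62, 5.33 and 5.93 FPKM (-1.32 ± 0.097). KRT7 itself fell by 1.54 against Anti. In these 3 members every CRLM1-OE sample was below every Ctrl sample and every Ctrl sample below every Anti sample. USP2-AS1, at most 0.96 FPKM, followed the same order (-1.02 ± 0.13 against Anti), though the difference of Anti and Ctrl did not pass (0.26, adjusted p = 0.12).

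CTD-2267D19.3 (GJD3-AS1) had 1.44, 1.66 and 1.43 FPKM in CRLM1-OE, next to 1.75, 1.63 and 1.73 in Ctrl and 3.27, 3.08 and 3.3 in Anti. Anti thus stood apart, and CRLM1-OE and Ctrl lay close to each other. Its change was -1.14 ± 0.11 against Anti, 0.82 ± 0.11 in Anti against Ctrl (adjusted p = 3.5e-13) and -0.30 against Ctrl (adjusted p = 0.067). All its exonic bases lie in opposite-strand exons, most of all those of GJD3, a connexin gene with a mean of 28.2 counts. GJD3 moved the same way, by -1.70 against Anti (adjusted p = 6.4e-09) and by 1.11 in Anti against Ctrl (adjusted p = 0.0001). Against Ctrl it did not pass either (-0.56, adjusted p = 0.23).

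Of the members called higher against Anti, RP11-295G20.2 (chr1:231520729-231528618, - strand, its start 35 bp from that of the TSNAX-DISC1 read-through gene) had a mean of 324.4 counts. It had 11.5, 12.9 and 13.6 FPKM in CRLM1-OE, next to 6.48, 7.51 and 8.13 in Ctrl and 4.98, 5.05 and 4.87 in Anti, again fully separated but in the reverse order. The log2 fold change was 1.30 ± 0.091 against Anti (adjusted p = 6.4e-45) and 0.67 ± 0.083 against Ctrl. FEZF1-AS1, an antisense RNA known from colorectal cancer, had 1.52, 1.37 and 1.18 FPKM in CRLM1-OE, next to 0.72, 0.77 and 0.81 in Ctrl and 0.55, 0.61 and 0.76 in Anti. It rose by 1.05 ± 0.15 against Anti and by 0.72 ± 0.14 against Ctrl (adjusted p = 2.2e-06). FEZF1 itself, a zinc finger transcription factor, was at most 0.10 FPKM and passed in no comparison.

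**Figure D2:**
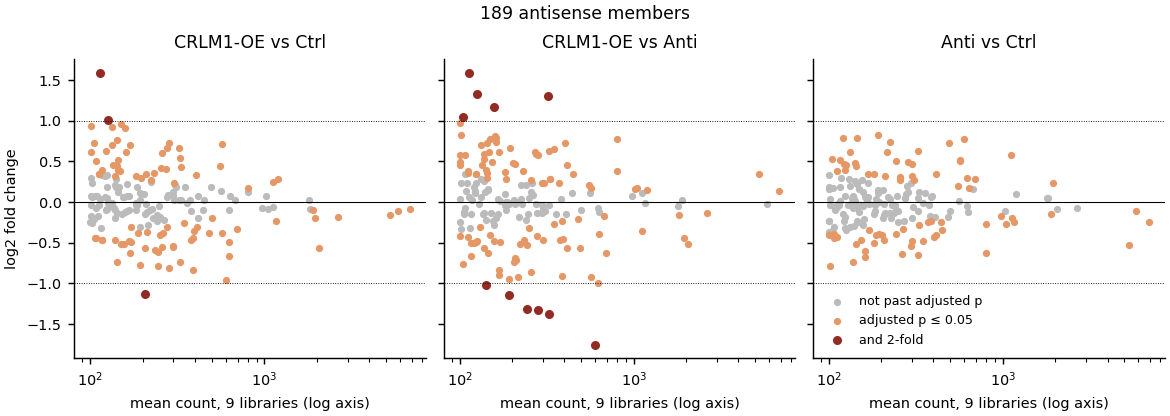
Mean count over the 9 samples (log axis) against the log2 fold change of each of the 189 members, 1 panel per comparison. Grey members did not pass an adjusted p of 0.05, orange ones did and dark ones also changed at least 2-fold (dotted lines at 1 and -1). The 3 dark members of the first panel and the 11 of the second all lie under 1000 mean counts, and the third panel has none.

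Between the controls, no member was called at 2-fold, where 0.683% of all genes tested were called higher and 0.38% lower (0.0855% and 0.0342% of those with at least 100 counts). At the level of adjusted p alone 37 members were higher (11.5% of all genes tested) and 40 lower (12.2%) in Anti than in Ctrl by edgeR, and 104 had an unadjusted p under 0.05. Of the abundant genes 25% were higher and 28.8% lower. The controls lay apart in 96 members (50.8%), against 31% of all genes tested and 61.3% of the abundant ones. DESeq2, limma and the other alternatives also called 0 at 2-fold. Besides VPS9D1-AS1 and CTD-2267D19.3, the largest rises were those of PSMD5-AS1 (0.79 ± 0.14), PP7080 (0.79 ± 0.13), RP11-452L6.5 (0.74 ± 0.11) and GABPB1-AS1 (0.73 ± 0.074). Of the exonic bases of PP7080, 85.4% lie in exons of other genes on its own strand, SLC9A3 the most. GABPB1-AS1, beside the gene of a GA-binding protein subunit, had 0.92, 0.88 and 1.03 FPKM in Anti, 0.54, 0.52 and 0.54 FPKM in Ctrl and 0.62, 0.66 and 0.69 FPKM in CRLM1-OE. LINC00659 (-0.78 ± 0.16) and RP11-195F19.9 (-0.74 ± 0.14) fell the most. In these 6 members the Anti samples stood apart from Ctrl without overlap, and none of the 6 passed in CRLM1-OE against Ctrl.

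From a list of 38 widely studied antisense RNAs, 14 were members. In CRLM1-OE against Ctrl 1 of them was higher, 7 were lower and 6 did not pass, where 28.8% of all genes with at least 100 counts were higher and 39.1% lower. The 7 were VPS9D1-AS1, USP2-AS1, SBF2-AS1 (-0.51 ± 0.13), NR2F1-AS1 (-0.38 ± 0.11), PSMA3-AS1 (-0.30 ± 0.098), UBA6-AS1 (-0.23 ± 0.049) and FGD5-AS1 (-0.19 ± 0.041), and SLC25A25-AS1 was the higher one (0.32 ± 0.13, adjusted p = 0.037). WAC-AS1 (-0.01), LOXL1-AS1 (0.02), THAP9-AS1 (-0.06), SLC16A1-AS1 (-0.08), GABPB1-AS1 (0.18) and PXN-AS1 (0.21) did not pass. Against Anti 3 were higher, 7 lower and 4 not past the threshold (33.8% and 40.4% of the abundant genes were higher and lower). Between Anti and Ctrl 4 were higher, 4 lower and 6 not past it (25% and 28.8% of the abundant genes). FGD5-AS1, the most abundant of the 14 by counts, had 8.32, 7.93 and 7.92 FPKM in CRLM1-OE, next to 8.76, 8.55 and 8.19 in Ctrl and 10.3, 10.6 and 10.9 in Anti. Its fall against Anti (-0.44 ± 0.038) had an adjusted p of 0.00024 at most over the alternatives. Of the 8 that passed against Ctrl, VPS9D1-AS1 and USP2-AS1 did so under every alternative. The other 6 lost the call in at least 1, with a highest adjusted p of 0.42 for FGD5-AS1, 0.33 for PSMA3-AS1, 0.28 for NR2F1-AS1 and SLC25A25-AS1, 0.22 for UBA6-AS1 and 0.085 for SBF2-AS1.

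Each of the 60 members with a symbol ending in -AS and a number was compared with the gene it is named after. All 60 pairs lay on opposite strands, 46 overlapped in exons and 16 had starts within 1000 bp. In CRLM1-OE against Ctrl both genes passed an adjusted p of 0.05 in 19 pairs, of which 13 moved the same way and 6 in opposite ways. Of the 60 partners 36 passed, 12 of them higher and 24 lower, beside 28.8% higher and 39.1% lower among all genes with at least 100 counts. Against Anti both passed in 28 pairs, 16 the same way and 12 in opposite ways, and in Anti against Ctrl in 14 pairs, 11 the same way and 3 in opposite ways. Across the 46 pairs with a partner of at least 100 counts, the 2 log2 fold changes had a Pearson r of -0.09 against Ctrl, 0.12 against Anti and 0.30 between the controls. These are descriptions across genes of the same libraries, which are not independent replicates.

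Among the 19 pairs in which both genes passed against Ctrl, VPS9D1-AS1 with VPS9D1 and GATA2-AS1 with GATA2 had the widest gap. VPS9D1-AS1 fell by 0.96 and VPS9D1 rose by 0.43 ± 0.098 against Ctrl (adjusted p = 6.6e-05). VPS9D1 had 2.47, 2.47 and 2.33 FPKM in CRLM1-OE, next to 1.52, 1.88 and 1.62 in Ctrl and 2.04, 2.14 and 1.88 in Anti. The log2 ratio of the pair changed by -1.38, as it did for GATA2, and the ratio of the pair did not overlap between CRLM1-OE and Ctrl. An exact two-sided permutation test gave p = 0.1, the smallest that 3 samples against 3 allow. Against Anti VPS9D1 did not pass (0.21, adjusted p = 0.059).

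MAFG, a small Maf transcription factor that shares the first promoter printed above with MAFG-AS1, also moved against its antisense RNA. It had 14.9, 15.2 and 15.4 FPKM in CRLM1-OE, next to 10.5, 10.1 and 9.59 in Ctrl and 13.2, 12.7 and 12.9 in Anti. MAFG rose by 0.48 ± 0.035 against Ctrl while MAFG-AS1 fell by 0.78 ± 0.11. In Anti against Ctrl both rose, MAFG by 0.27 ± 0.036 and MAFG-AS1 by 0.51 ± 0.094, so that the opposite movement was not found there. The 2 have no exonic base in common, with 93 bp between their spans.

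GATA2, a transcription factor of blood and endothelium that is also active in some carcinomas, had 2.79, 2.68 and 2.93 FPKM in CRLM1-OE against 1.66, 1.44 and 1.54 FPKM in Ctrl, and rose by 0.74 ± 0.088. GATA2-AS1 went from 1.75, 1.74 and 1.78 FPKM in Ctrl to 1.12, 1.19 and 1.38 FPKM in CRLM1-OE and fell by 0.63 ± 0.13. The same opposite movement was seen for PIK3CD-AS2 (fell by 0.44 ± 0.082) and PIK3CD, a catalytic subunit of PI 3-kinase (0.79). It was turned round for TMEM51-AS1 (0.76 ± 0.13) and TMEM51 (-0.26 ± 0.048), and for TPT1-AS1 (0.17 ± 0.055, with an adjusted p up to 0.088 over the alternatives) and TPT1 (-0.31 ± 0.015), the gene of the translationally controlled tumour protein. These 4 pairs and the pairs of VPS9D1 and MAFG are the 6 that moved in opposite ways against Ctrl.

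RNASEH1-AS1 and RNASEH1, the gene of a nuclease for RNA in RNA:DNA hybrids, are a pair from the printed promoters that moved together. RNASEH1-AS1 had 3.41, 3.18 and 4.12 FPKM in CRLM1-OE, next to 4.5, 5.49 and 4.55 in Ctrl and 6.07, 6.89 and 5.93 in Anti. RNASEH1 had 6.51, 6.08 and 6.15 FPKM, 8.52, 8.67 and 8.25 FPKM, and 11.1, 9.99 and 10.9 FPKM in the same order. Both genes were lowest in CRLM1-OE and highest in Anti, with no overlap. Their log2 fold changes were -0.55 and -0.55 against Ctrl, -0.86 and -0.81 against Anti and 0.29 and 0.24 between the controls. UBA6-AS1 and UBA6, a ubiquitin-activating enzyme, fell together against Ctrl (-0.23 and -0.20, neither past the threshold under total counts), but only UBA6 passed against Anti (-0.01 for UBA6-AS1 and -0.19 for UBA6). An exact permutation test of their ratio gave p = 0.2 there, with 0.1 the smallest possible. TPT1-AS1, the remaining printed promoter, moved away from TPT1 against both controls (0.77 and -0.10 against Anti). The printed promoters thus held pairs of both kinds. Of named pairs with starts within 1000 bp in which both genes passed against Ctrl, those of TPT1 and MAFG moved in opposite ways. Those of H1FX, ZNF503, TMEM147, RNASEH1 and UBA6 moved together. There were 15 pairs with such starts and a partner of at least 100 counts. Their changes had a Pearson r of 0.25 against Ctrl, 0.33 against Anti and 0.45 between the controls. For all 46 pairs with such a partner it was -0.09, 0.12 and 0.30. The difference was not tested.

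**Figure D3:**
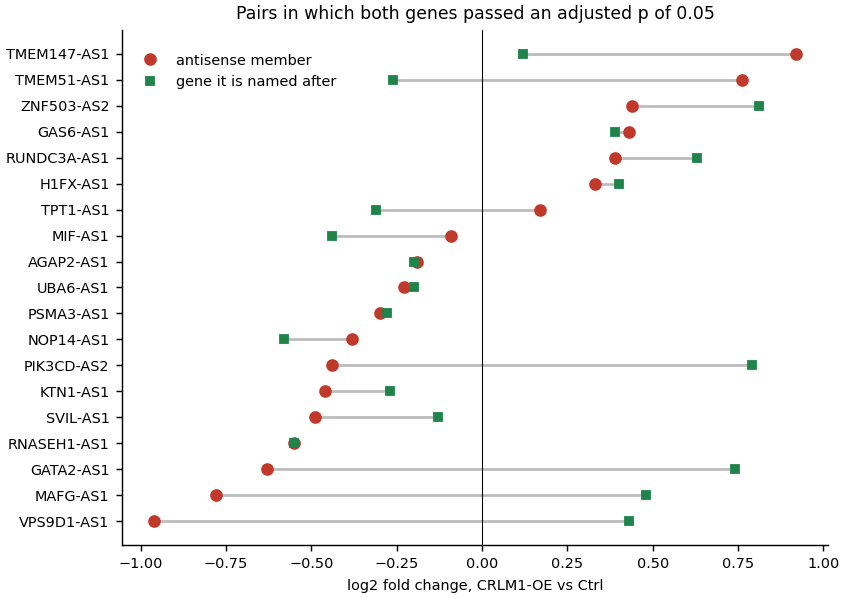
Log2 fold change in CRLM1-OE against Ctrl of the antisense member (circles) and of the gene it is named after (squares), for the 19 pairs in which both passed an adjusted p of 0.05. A line joins each pair, and in 6 pairs, VPS9D1-AS1 and MAFG-AS1 at the bottom among them, it crosses 0.

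The members with the most counts per length were mostly genes annotated inside exons of highly expressed genes. Where counting does not use strand, their FPKM can include reads of those genes. Of the 8 with the highest mean FPKM, 5 had at least 90% of their exonic bases within opposite-strand exons. With the gene sharing the most bases, they were RP5-940J5.9 in GAPDH (291 FPKM), RP11-290D2.6 in TPT1 (232 FPKM), RP11-290L1.3 in PHLDA1 (84.2 FPKM), RP11-138I1.4 in UBB (60.1 FPKM) and RP11-498C9.2 in P4HB (45.1 FPKM). MIF-AS1 (108 FPKM), beside the gene of a macrophage cytokine, was covered to 46.5%. RP4-614O4.11 (79.9 FPKM) had no such base, but 80.3% of its exonic bases lie in exons of other genes on its own strand, EIF6 the most. RP11-442H21.2 (49.4 FPKM) was not placed. RP5-940J5.9 had 294, 305 and 339 FPKM in CRLM1-OE, next to 305, 316 and 344 in Ctrl and 247, 228 and 238 in Anti, where it was lower than in all 6 other samples. It fell by 0.53 ± 0.029 in Anti against Ctrl (adjusted p = 2.2e-73), beside a fall of GAPDH, the glycolytic enzyme, by 0.59. For MIF-AS1 (-0.09) and RP11-290D2.6 (-0.11) the small falls against Ctrl were lost under total counts and on log2 FPKM, where the values lay slightly above 0 and did not pass (adjusted p from 0.13 to 0.78 for MIF-AS1 and from 0.42 to 1 for RP11-290D2.6).

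The members inside sense exons changed much as the sense genes did. In 50 members opposite-strand exons covered more than 50% of the exonic bases, and the gene sharing the most of them had at least 100 counts. The log2 fold changes of member and that sense gene had a Pearson r of 0.77 against Ctrl, 0.71 against Anti and 0.73 between the controls. For the 80 members with a smaller overlap it was 0.19, 0.20 and 0.41. For PAGR1, 1 of the 50, the values used were those of another gene with that symbol (-0.25 against Ctrl, where the member had -0.11). Points share libraries, and overlapping exons can share reads where strand is not used, so these values describe the table. Against Ctrl the 2 changes lay within 0.25 of each other for 30 of the 50, and RP11-517C16.2 had the widest gap (1.6). RP11-290L1.3 (PHLDA1-AS1), at 68.3, 66.0 and 67.9 FPKM in CRLM1-OE, against 87.6, 93.5 and 95.9 FPKM in Ctrl, fell by 0.57 ± 0.040 where PHLDA1 fell by 0.69 ± 0.020.

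**Figure D4:**
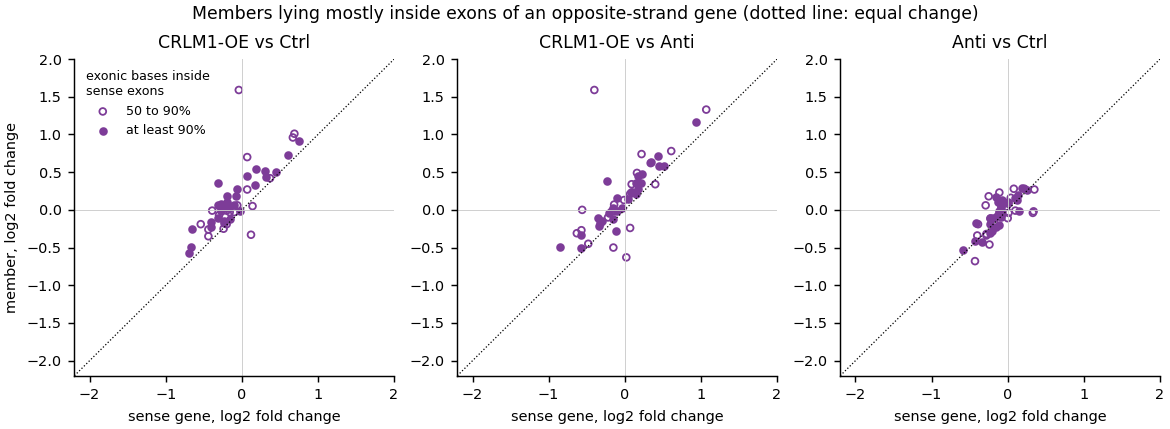
Log2 fold change of the member (y axis) and of the opposite-strand gene sharing the most exonic bases with it (x axis) for 50 members, 1 panel per comparison, with filled points for members covered to at least 90%. The point of PAGR1 is that of another gene with this symbol. Points follow the dotted line of equal change but lie mostly above it in both CRLM1-OE panels, and the lone point near 1.59 is RP11-517C16.2.

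The same members also moved relative to the sense genes, and nearly all in 1 direction. For the 29 members covered to at least 90%, the member's log2 fold change exceeded that of the sense gene in 29 of 29 against Ctrl (median difference 0.21) and in 28 of 29 against Anti (0.16), but in 22 of 29 between the controls (0.06). These differences do not depend on library scaling, since both genes are measured in the same samples. They hold changes of the sense genes as well as of the members. Against Ctrl 13 of the 29 members and 26 of their sense genes passed an adjusted p of 0.05. Against Anti 17 and 27 passed, and between the controls 6 and 27. Among all genes with at least 100 counts 67.9%, 74.2% and 53.9% passed in these 3 comparisons. Summed over the 29 members, their counts were 2.82%, 2.81% and 3.25% of the counts of the sense genes in CRLM1-OE, 2.32%, 2.47% and 2.63% in Ctrl and 2.74%, 2.61% and 2.66% in Anti. CRLM1-OE was above all samples of both controls, and the controls overlapped. The mean was 2.96% ± 0.253 (SD, n = 3) for CRLM1-OE, 2.47% ± 0.155 for Ctrl and 2.67% ± 0.0663 for Anti. An exact two-sided permutation test gave p = 0.1 for CRLM1-OE with each control, the smallest possible with 3 against 3, and p = 0.2 for Anti with Ctrl. Without the third CRLM1-OE replicate, the highest sample, the difference from Anti went from 0.29 to 0.144 percentage points and that from Ctrl from 0.487 to 0.341. Without the first Ctrl replicate the difference of Anti and Ctrl went from 0.196 to 0.12 points. With the 50 members of over 50% overlap CRLM1-OE differed by 0.526 points from Ctrl and by 0.268 from Anti, and Anti by 0.259 from Ctrl, with an exact p of 0.1 for each, so that the controls too were apart. The sums over these 50 include the counts of both genes with the symbol PAGR1. Without TPT1 and GAPDH the 3 differences were 0.492, 0.37 and 0.122 points.

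The share was small for most members. Over the 29 members the counts were 0.284% to 26.1% of those of the sense gene, with a median of 2.45%, and their FPKM 2.01% to 95.6%, with a median of 12.4%. Counts of RP5-940J5.9 were 2.04% to 2.43% of those of the whole gene GAPDH in CRLM1-OE. They were 1.76% to 1.96% in the Ctrl samples and 1.83% to 2.00% in Anti. For RP11-96D1.11 in NFATC3, a transcription factor activated by calcineurin, this share was 32.9% to 36.3% in CRLM1-OE. It was 20% to 22.7% in the Ctrl samples and 22.2% to 24.0% in Anti. RP11-96D1.11 rose by 0.36 (adjusted p = 0.0015) against Ctrl where NFATC3 had -0.32. In 15 of the 29 the share in all CRLM1-OE samples was above that in all Ctrl samples and in 0 it was below. Beside this, the ratio to the gene named before -AS did not overlap between CRLM1-OE and Ctrl in 31 of the 60 named pairs, in either direction. Such a ratio was not taken over all genes, so whether the shift is particular to members inside sense exons was not tested. What part read assignment between the strands has in the shift of the 29 members was not tested.

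**Figure D5:**
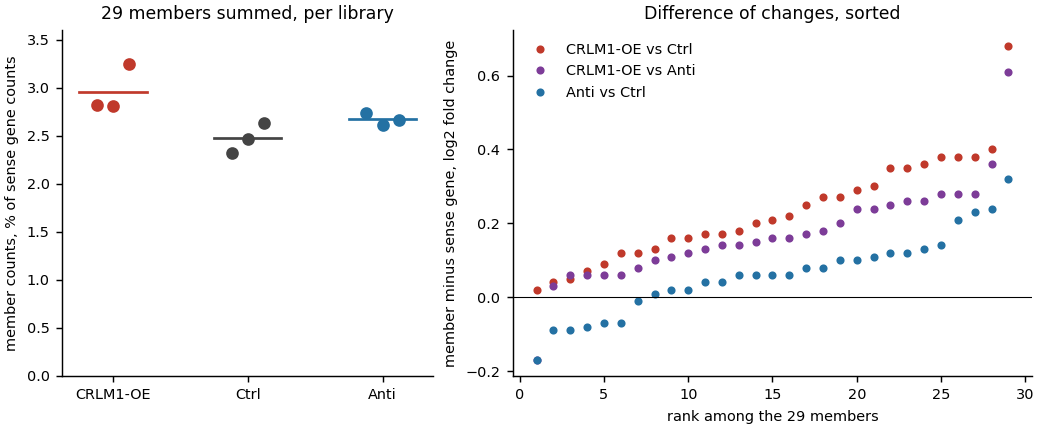
Left, summed counts of the 29 members inside sense exons as a percentage of the counts of those sense genes, 1 point per sample with the group mean as a line (axis from 0). Right, the log2 fold change of each member minus that of its sense gene, sorted within each comparison. CRLM1-OE samples lie at 2.81% or above on the left, and on the right all 29 values against Ctrl are above 0.

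By position class, in CRLM1-OE against Ctrl, where 28.8% of all genes with at least 100 counts were higher and 39.1% lower, 15 of 59 head-to-head members with exon overlap were higher and 13 lower, and 26 of 104 members with exon overlap only were higher and 27 lower. The 13 include another gene with the symbol PAGR1 (-0.25, adjusted p = 0.00043), read in place of the member of that symbol, which did not pass (-0.11, adjusted p = 0.36). Of the 16 members with neither feature 1 was higher and 7 lower, with a median log2 fold change of -0.094. The 60 named partners had a median of -0.075. For comparison, 45 of 129 lincRNA genes of at least 100 counts were higher and 33 lower (median 0.07). Among 3331 tested antisense genes with a mean under 100 counts, 166 rose and 44 fell, and their median was 0.21. Differences between these classes were not tested.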

How the data were processed

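The authors sequenced poly(A) RNA of 9 HCT116 samples, grouped here by their labels. Reads were trimmed, those under 16 nt dropped, and the rest aligned with TopHat2 (4 mismatches, GRCh38, Gencode version 23). The authors deposited raw gene counts from unique reads, and FPKM values. Strand use in counting is not given in the sources used here.

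Here each comparison was fitted on its 6 samples over the whole count table by the quasi-likelihood test of edgeR 4.0.16 under R 4.3.3, with TMM factors and p-values adjusted by Benjamini-Hochberg over all genes counted at least once. Calls needed a 2-fold change at an adjusted p up to 0.05. The fit of CRLM1-OE against Ctrl was tested on simulated data. Positions came from GENCODE version 44 and promoters from RefSeq. Alternatives were RLE factors, total counts, filterByExpr, DESeq2 1.42.0, limma 3.58.1 on log2(FPKM + 0.1) and log2(FPKM + 1), a fit of all 9 samples, a replicate block and each replicate left out. Figures used matplotlib 3.10.9 under Python 3.11.15.

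The members and gene lists were chosen with earlier results of these data known. Named were members called in any comparison, the 8 largest changes past the adjusted p in each, the 8 highest by FPKM, those beside the minimum, a fixed list of well-known antisense RNAs and named sense partners. Pairs in which both genes passed, sense genes around members and RP11-96D1.11 were chosen after their values were seen, as were the summed share of counts and its alternatives. Replicates of 1 group differed by more than counting noise in every pair (chi-square per degree of freedom 2.06 to 3.95).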

Additional observations from a re-analysis of the deposited data

How the results depend on the processing

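Scaling matters most for the comparison of CRLM1-OE with Ctrl. The count of members called higher, 2 as reported, was 6 under total counts, 4 for limma on log2(FPKM + 0.1), 0 on log2(FPKM + 1) and 1 in the fit of all 9 samples, and the 1 called lower became 0 under total counts and on both FPKM scales. At adjusted p alone, total counts gave 67 higher and 30 lower, and limma 29 and 28 lower with pseudocounts of 0.1 and 1. Against Anti, log2(FPKM + 1) left 3 higher and 2 lower. Between the controls the 40 lower members became 24, 23 and 25 under the 2 FPKM scales and total counts. The members' median moved in the same order to 0.0906, 0.0682 and 0.13 against Ctrl and to 0.0483, 0.0306 and 0.0731 between the controls, and to 0.0549 against Anti under total counts. Signs changed in the same 3 settings for MIF-AS1 (0.0265, 0.0263 and 0.0526) and RP11-290D2.6 (0.00226, 0.00225 and 0.033) against Ctrl and for PXN between the controls (0.0535, 0.0528 and 0.067), and under total counts for SBF2 against Ctrl (0.111). Neither total counts nor FPKM carry a TMM factor, so all genes of a library shift together in these settings. RLE factors, filterByExpr and DESeq2 moved none of the counts of members by over 1.5 times.

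With each replicate left out in turn, the members called against Ctrl ranged from 1 (without the third CRLM1-OE replicate) to 4 (without the third Ctrl replicate) higher, with 1 lower each time, and against Anti from 4 to 5 higher and 5 to 8 lower. The median between the controls ranged from -0.0588 to -0.000328, and the medians of the other comparisons from -0.0428 to 0.0295 and from -0.0151 to 0.0191.

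Equal replicate numbers did not pair the samples, as correlations of residuals were -0.088 to 0.081 for equal and -0.132 to 0.166 for unequal numbers. With the replicate block, 46 members were higher and 54 lower against Ctrl at adjusted p alone, 61 and 52 against Anti, and 37 and 41 between the controls. The calls at 2-fold under the block were 2 and 1, 5 and 6, and 0 and 0. Depth limits the lowest members, as RP3-394A18.1 with a mean of 100.3 counts had a standard error of 0.15 on the log2 scale against Ctrl and FGD5-AS1 with 1940 counts one of 0.041.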
